A study of Mus musculus with 42 samples.

Results

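The genes described here carry out DNA replication and S phase. They are 52 symbols covering the licensing of replication origins, the activation of the replicative helicase, the sliding clamp and its loaders, the polymerases, nucleotide supply, chromatin assembly, fork protection and the passage from G1 into S. They were chosen by name, with no measured value in the choice but with earlier results of these data known. A gene was a member where it had a row under its symbol in all 12 deposited tables, which held for 51 of the 52 symbols, out of 12174 named genes that all tables share. Fen1, the flap endonuclease, did not meet it and was not counted. A member was tested in a table where its mean normalized count was at least 10. All 51 met this in every table but that of GA3T proximal, where 50 did and Exo1 was below it. A gene was called where limma gave a Benjamini-Hochberg adjusted p under 0.05 over all genes of the table and the log2 fold change was at least 1 in size.

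Replication origins are licensed in G1, when the origin recognition complex, Cdc6 and Cdt1 load the MCM helicase, and they fire in S phase once Cdc45 and the GINS complex join it. Primase with polymerase alpha starts each strand, polymerases epsilon and delta extend it on the PCNA clamp, and ribonucleotide reductase and thymidylate synthase supply the precursors. Many of these genes are targets of E2F transcription factors and are expressed together as a cell enters the cycle, so that in the colon their RNA is typical of the dividing cells of the lower crypt and of crypt organoids in culture. In bulk RNA such as this, fewer cycling cells and less RNA per cycling cell cannot be told apart.

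The study compared 3 kinds of mouse material. Gli1-CreERT2 mice received tamoxifen (subcutaneous injection by the labels, intraperitoneal by the study's methods) and were studied at day 30. Controls carried the Cre without a floxed gene (labelled WT), and the others lost Smad4, the shared signal transducer of the BMP and TGF-beta pathways, or Alk3 (Bmpr1a, a BMP receptor) in Gli1+ cells. Muc2-mCherry+ goblet cells (GWTM2 control, GS4M2 with Smad4 and GA3M2 with Alk3 deleted in the stroma) and Gli1-tdTomato+ stromal cells (GWTT, GS4T and GA3T) were sorted from proximal and distal colon, with 2 libraries in each of 12 groups. The floxed gene was removed in Gli1+ cells and not in the goblet cells themselves. WT colonic organoids were left untreated or given 10 nM IL-1 (IL-1a with IL-1b) or 10 nM IL-17A for 12 or 72 h, with 3 libraries in each of 6 groups. Mice of both sexes, 2 to 4 months old, were used. By Xist and Y-linked reads, sex was not balanced between groups. Every GS4M2 and GA3M2 library was male, while GWTM2 replicate 1 was female and replicate 2 male in each segment. Proximal GS4T libraries were female, while GWTT replicate 1 was male there. All IL-17A libraries of 72 h were male, while control replicates 2 and 4 of 72 h were female. Counts with sex as a block are given at the end. Whether each library came from a mouse or culture of its own is not stated, so p-values measure only the spread between these libraries, which may be technical.

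Several facts about the libraries bear on the results. Total reads ranged from 14222902 to 23686940 over the 42 libraries. The targeted genes were lower in their knockout stroma: Smad4 was at 1604 and 1673 normalized counts in proximal controls against 705 and 835, and at 1781 and 1703 in distal controls against 680 and 1171. Bmpr1a was at 2960 and 3220 against 2233 and 1842 proximally, and at 3359 and 3485 against 2203 and 2043 distally. The marker of the stromal sort, Gli1, was at 23.9 normalized counts in GS4T proximal replicate 2 and at 34.7 in GA3T proximal replicate 2, against 642 and 1597 in the controls of the former. The Smad4 and Alk3 tables of a segment share their control libraries, as do the IL-1 and IL-17A tables of a time point. Among the organoids, the 72 h control replicates 1 and 4 held the reads of the 12 h control replicates 2 and 4 (99.99% of 14556 shared genes with the same read number). The remaining 72 h control, replicate 2, was nearly identical to 72 h replicate 4 (chi-square per degree of freedom 3.30) and to 12 h control replicate 4 (3.45). It is the control called unshared below, though it too stood close to a 12 h control. Culture time and cytokine therefore cannot be told apart in the 72 h tables. Replicates 3 and 4 were also nearly identical within the 12 h IL-1 group (3.03) and within the 12 h IL-17A group (3.32).

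The promoters are shown first, because a shared E2F motif is what many of these genes are known for. RefSeq promoter windows (GRCm38.p6, 250 bases before to 50 after the gene's start) matched 41 of the 51 members. The motif was searched as TTTCCCGC, TTTCGCGC, TTTGCCGC or TTTGGCGC on both strands, and 14 of the 41 windows held it (34.1%), against 2.32% of 27025 windows of all genes. The CCAAT box, searched as CCAAT on both strands and free to overlap the first motif, was in 26 (63.4%), against 37.9% of all windows. Both motifs stood in 9 of the 41 (22.0%), against 1.01% of all. Of the 15 windows of genes on a list of mitosis genes, 1 held the E2F letters and 14 held CCAAT. The sequences below belong to the 6 members with the E2F letters that fell furthest after 72 h of IL-1, and to Pold3, the member that changed least there. They run 5′ to 3′ on the gene's own strand, and capitals mark the E2F letters, with overlapping matches on the 2 strands joined into 1 stretch.

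Mcm5: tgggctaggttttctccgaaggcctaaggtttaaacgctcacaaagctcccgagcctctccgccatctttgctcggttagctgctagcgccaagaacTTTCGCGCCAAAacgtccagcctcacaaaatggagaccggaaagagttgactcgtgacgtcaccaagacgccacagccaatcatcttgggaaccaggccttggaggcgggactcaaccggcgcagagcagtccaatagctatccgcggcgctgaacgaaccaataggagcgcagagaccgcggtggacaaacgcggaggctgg
Mcm3: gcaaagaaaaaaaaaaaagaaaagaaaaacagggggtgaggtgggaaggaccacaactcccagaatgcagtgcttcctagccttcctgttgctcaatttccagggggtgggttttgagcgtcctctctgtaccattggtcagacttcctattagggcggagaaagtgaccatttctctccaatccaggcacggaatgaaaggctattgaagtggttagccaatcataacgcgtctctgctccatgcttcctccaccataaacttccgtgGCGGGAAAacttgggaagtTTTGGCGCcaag
Mcm6: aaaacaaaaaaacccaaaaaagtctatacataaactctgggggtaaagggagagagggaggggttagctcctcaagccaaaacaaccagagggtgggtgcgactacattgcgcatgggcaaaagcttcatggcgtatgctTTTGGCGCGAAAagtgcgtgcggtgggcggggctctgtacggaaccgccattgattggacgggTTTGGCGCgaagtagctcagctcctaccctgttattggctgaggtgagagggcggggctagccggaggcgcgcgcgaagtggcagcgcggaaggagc
Cdc6: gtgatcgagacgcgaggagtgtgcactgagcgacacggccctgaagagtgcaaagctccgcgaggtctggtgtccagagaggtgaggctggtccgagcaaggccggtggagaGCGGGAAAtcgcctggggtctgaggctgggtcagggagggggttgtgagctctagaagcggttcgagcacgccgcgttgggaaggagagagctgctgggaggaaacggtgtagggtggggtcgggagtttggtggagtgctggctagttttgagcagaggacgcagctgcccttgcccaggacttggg
Pola1: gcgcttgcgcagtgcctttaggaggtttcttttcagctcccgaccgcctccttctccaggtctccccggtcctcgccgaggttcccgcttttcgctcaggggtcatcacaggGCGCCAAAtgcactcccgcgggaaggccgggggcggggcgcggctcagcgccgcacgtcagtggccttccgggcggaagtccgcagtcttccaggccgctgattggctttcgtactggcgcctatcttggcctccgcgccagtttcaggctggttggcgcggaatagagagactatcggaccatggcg
Clspn: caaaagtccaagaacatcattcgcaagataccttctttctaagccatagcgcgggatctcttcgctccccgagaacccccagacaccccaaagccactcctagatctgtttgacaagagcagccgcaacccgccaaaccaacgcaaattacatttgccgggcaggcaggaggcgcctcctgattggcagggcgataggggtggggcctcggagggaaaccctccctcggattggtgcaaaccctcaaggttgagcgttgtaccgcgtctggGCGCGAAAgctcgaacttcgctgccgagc
Pold3: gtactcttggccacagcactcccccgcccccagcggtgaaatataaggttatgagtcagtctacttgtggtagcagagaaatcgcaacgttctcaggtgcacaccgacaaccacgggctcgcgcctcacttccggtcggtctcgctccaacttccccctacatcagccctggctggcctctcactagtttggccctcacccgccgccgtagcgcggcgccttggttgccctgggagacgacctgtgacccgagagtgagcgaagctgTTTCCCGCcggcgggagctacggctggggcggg

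The windows lie at chr8:75109259-75109558 (plus strand) for Mcm5, chr1:20820263-20820562 (minus) for Mcm3, chr1:128359656-128359955 (minus) for Mcm6, chr11:98907901-98908200 (plus) for Cdc6, chrX:93632106-93632405 (minus) for Pola1, chr4:126556730-126557029 (plus) for Clspn and chr7:100121453-100121752 (minus) for Pold3. The stretches in capitals begin 153 bases before the start of Mcm5, 138 before that of Cdc6 and 138 before that of Pola1. Mcm6 has them at 110 and 47 bases before its start, and Mcm3 at 19 and 38 bases after it. In Clspn they begin 21 bases and in Pold3 17 bases after the start.

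In unperturbed cells the members were most abundant in organoids, lower in goblet cells and lowest in Gli1+ stroma. Their median level was 9.18 RPKM in the 12 h organoid controls, 6.15 and 6.44 RPKM in proximal and distal GWTM2 cells, and 2.02 and 2.06 RPKM in proximal and distal GWTT cells. Pcna, the sliding clamp, had the highest level per length everywhere, at 102.2 ± 9.34 RPKM in organoids (SD, n = 3), 54.9 ± 6.82 in distal GWTM2 cells and 32.2 ± 5.49 in distal GWTT cells (n = 2 each). Exo1, an exonuclease of mismatch repair and of DNA end resection, was the lowest member in GWTT cells, at 0.0256 ± 0.0157 RPKM proximally and 0.0566 ± 0.0100 distally. In GWTT cells 15 members proximally and 19 distally were under 1 RPKM, against 1 and 0 in GWTM2 cells.

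**Figure D1:**
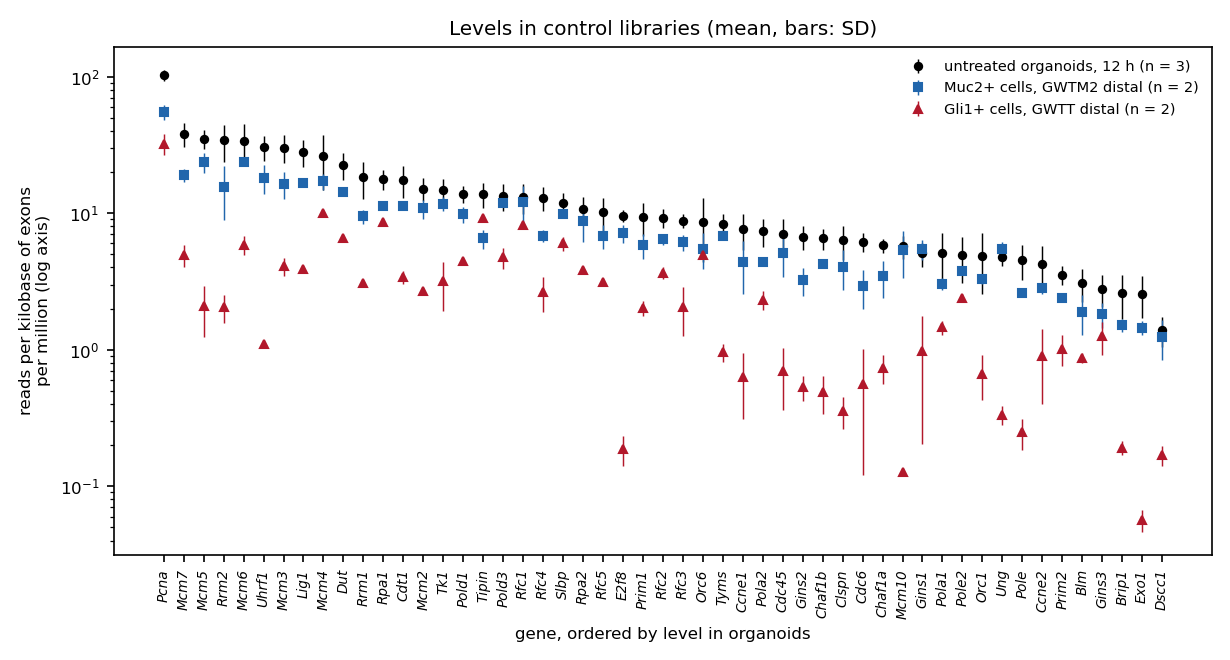
Levels of the 51 members per length (RPKM, log axis) in untreated material: 12 h control organoids (n = 3), distal GWTM2 goblet cells (n = 2) and distal GWTT stromal cells (n = 2), as group means. Pcna stands highest in all 3, and 19 members of the stromal cells lie under 1 RPKM.

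The gap between goblet cells and stroma was uneven across members. In RPM (reads scaled to a fixed library total), 50 of the 51 had a higher control mean in GWTM2 than in GWTT cells, with a median ratio of 3.56. The ratio was 36.5 for E2f8, an atypical E2F that represses E2F targets, 32.5 for Exo1, 28.2 for Mcm10, a helicase activation factor, 18.8 for Ung, the uracil glycosylase, and 16.4 for Uhrf1, which couples DNA methylation to replication. It was 1.49 for Pcna and 0.707 for Tipin, a fork protection factor and the exception among the 51. Organoid controls exceeded GWTM2 controls in 50 of the 51 members, with a median ratio of 1.61, and Ung was the exception at 0.797. These are levels of separately prepared cell types and were not tested.

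Summed over the members, the RPM ranged from 1509 to 2665 in the 12 goblet cell libraries and from 644 to 967 in the 12 stromal libraries. The 9 libraries of the 12 h organoid groups summed to 2071 to 3796. At 72 h the controls summed to 3078, 3910 and 3796, IL-1 to 657, 899 and 427, and IL-17A to 711, 1871 and 396. The 72 h cytokine libraries thus lay below every control library, and IL-17A replicate 2 stood apart from the other 5.

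**Figure D2:**
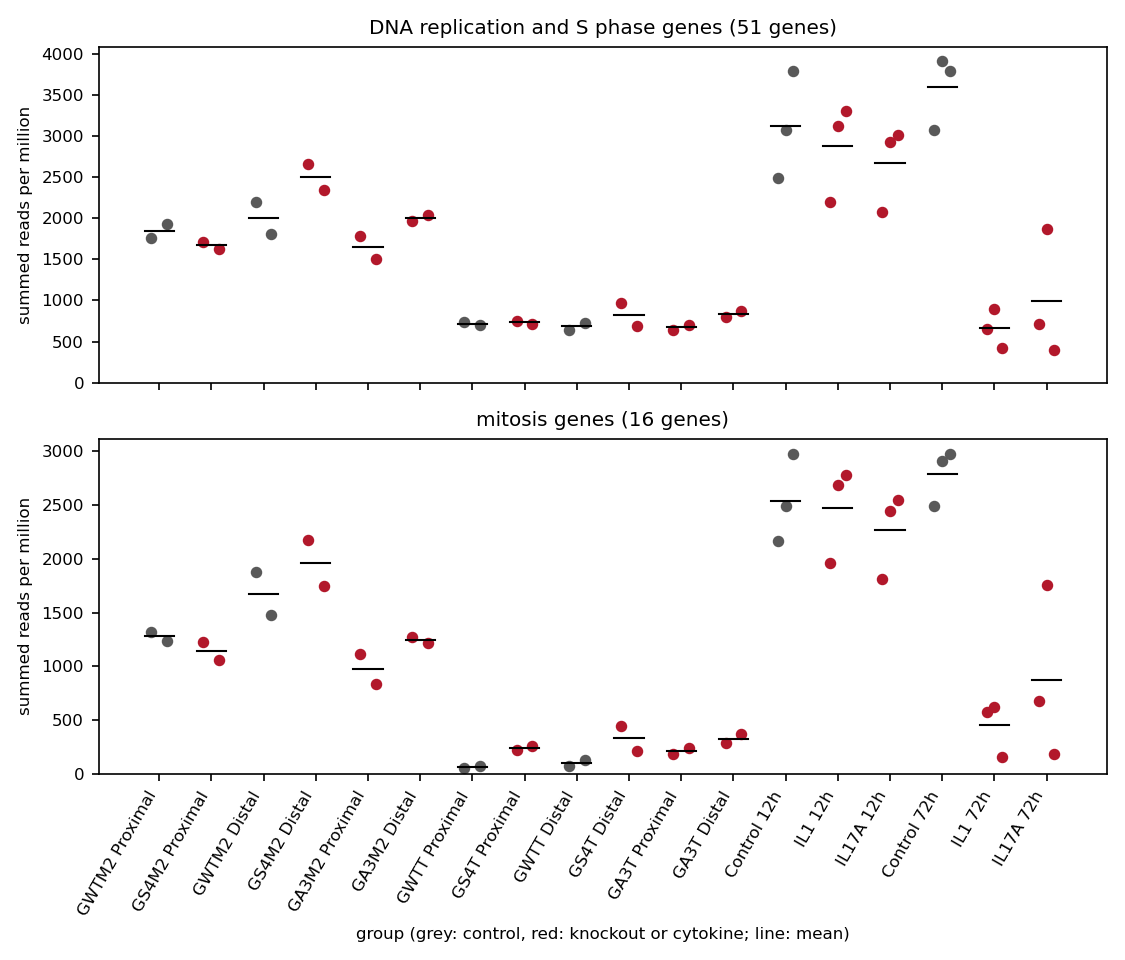
Summed level of the 51 members in every library (RPM), by group. The 6 organoid libraries with cytokine for 72 h lie between 396 and 1871, below the 3 controls at 3078 to 3910, while the goblet cell libraries lie between 1509 and 2665 in all genotypes and segments.

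After 72 h of IL-1 nearly the whole set was lower. By limma, 50 of the 51 members fell and none rose, where 12.2% of the 13023 genes tested were called lower. The median log2 fold change of the members was -2.47, against -0.00 over all genes. edgeR and DESeq2 on the recovered reads each called 50 lower, where they called 12.1% and 12.4% of all genes lower. The groups did not overlap for any of the 51 members, with every treated library below every control, where this held for 27.8% of all genes. Pold3 was the member not called. With the unshared control library alone against IL-1 the members' median was -2.63, and limma called none of them.

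The licensing factors had the largest falls, with all 10 called and a median of -3.17. Mcm5, a subunit of the MCM helicase, was at 2319, 2636 and 2270 normalized counts in the controls and at 152, 415 and 50.5 with IL-1. That is 16.2-fold lower (log2 fold change -4.02 ± 0.64 SE, limma adjusted p = 0.00434). Mcm3 stood at 1730, 2261 and 2072 against 147, 371 and 47.2, and Cdc6, the loader, at 490, 550 and 551 against 48.2, 77.7 and 19.7. In each of these genes replicate 2 kept the most RNA of the IL-1 libraries and replicate 3 the least. Orc6, a subunit of the origin recognition complex, fell least of the licensing factors, by 1.95 on the log2 scale.

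The genes that open and copy the DNA showed a wider range. The 5 helicase activation genes were all called, from Gins2 at -3.20 to Mcm10 at -2.06. Of 8 polymerase subunits 7 were called, with a median of -2.51. Pola1, the catalytic subunit of polymerase alpha, was at 559, 1062 and 968 normalized counts in the controls and at 65.0, 124 and 26.3 with IL-1 (log2 fold change -3.78 ± 0.53, limma adjusted p = 0.00335). Pole, the catalytic subunit of polymerase epsilon, had -3.77 and Prim1, the primase, -3.46. By contrast Pold3, an accessory subunit of polymerase delta, was at 977, 1188 and 1079 in the controls and at 873, 600 and 657 with IL-1, a 1.54-fold difference (log2 fold change -0.62 ± 0.18, limma adjusted p = 0.0300) that was under the threshold on size. The Pold3 groups did not overlap either, but their gap was small beside that of Pola1.

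The clamp, its loaders and the lagging strand genes had the smallest falls of any role, with all 10 called at a median of -1.74. Pcna was at 3919, 3940 and 3815 normalized counts in the controls and at 1903, 1564 and 1396 with IL-1, 2.42-fold lower (log2 fold change -1.27 ± 0.15, limma adjusted p = 0.00284). No IL-1 library reached the lowest control. Rfc1, the large subunit of the main clamp loader, had -1.08, whereas Dscc1, of the loader that acts in sister chromatid cohesion, had -2.95 and Lig1, which joins the lagging strand fragments, -2.95.

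Nucleotide supply, chromatin assembly, fork protection and the G1/S regulators were lower throughout. All 5 nucleotide genes were called, from Rrm2, the regulated subunit of ribonucleotide reductase, at -2.61 to Tk1, a salvage kinase, at -1.50. Of the chromatin genes, Chaf1b of the histone chaperone CAF-1 had -3.60 and Slbp, which binds histone mRNA, -1.10. Clspn (claspin), which passes the replication checkpoint signal to Chk1, fell furthest of all members. It was at 608, 951 and 885 normalized counts in the controls and at 71.0, 113 and 11 with IL-1, 17.4-fold lower (log2 fold change -4.12 ± 0.75, limma adjusted p = 0.00620). Replicate 3 was again the lowest. Among the regulators, E2f8 had -2.95, and the cyclins E had -2.24 for Ccne2 and -1.58 for Ccne1.

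**Figure D3:**
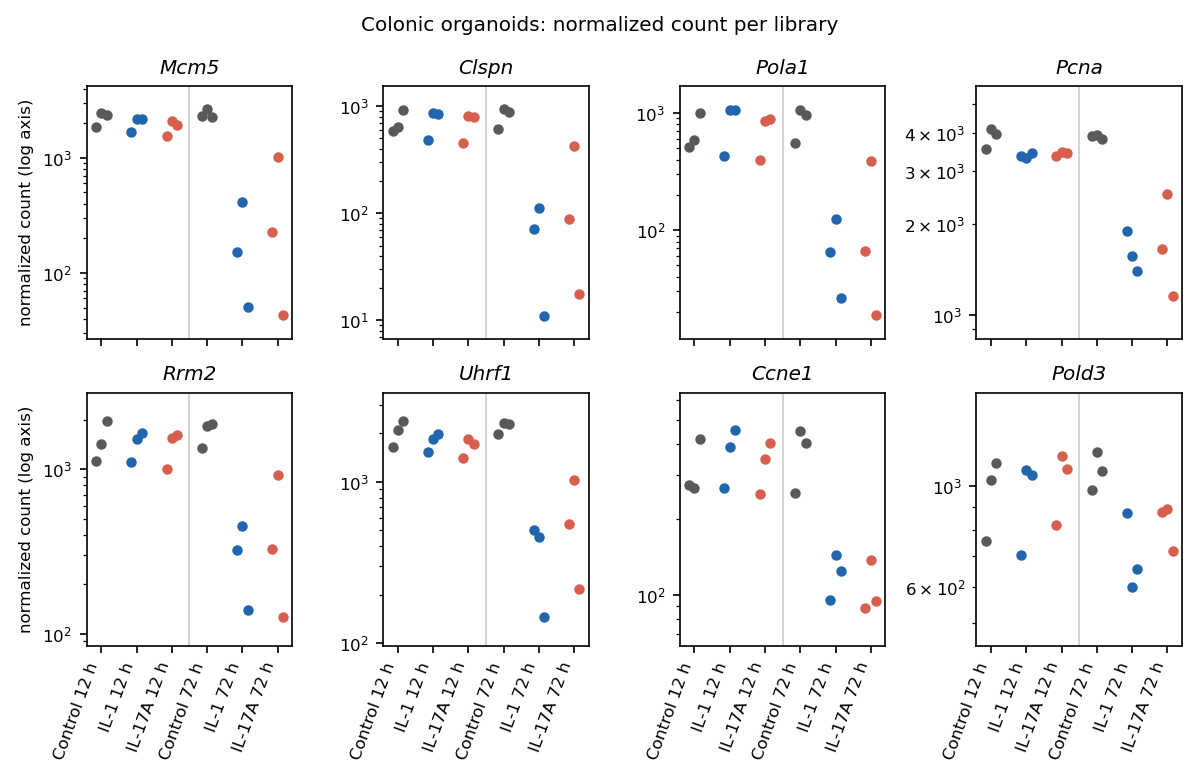
Normalized counts (log axis) of 8 members in each 72 h organoid library: control, IL-1 and IL-17A, 3 libraries each. Mcm5 spreads from 42.8 to 1015 within the IL-17A group, while Pold3 stays near its controls.

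IL-17A for 72 h gave lower values in the same direction, with far more spread between its libraries. limma called 18 of the 51 members lower and none higher, where 2.92% of the 13073 genes tested were called lower, and the members' median was -2.03 against -0.01 over all genes. edgeR called 10 and DESeq2 42 lower, where they called 1.67% and 7.25% of all genes lower. All 51 log2 fold changes were below 0, against 50.3% of all genes, and no member's groups overlapped, where 23.6% of all genes had every treated library below every control. The count rests on 1 library, and the share of all genes was not computed for the fits with a library left out. Without IL-17A replicate 2 limma called 49, and without any other single library it called at most 1. With the unshared control library alone it called none.

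The members that passed with IL-17A had log2 fold changes from -2.74 for Gins2 to -1.20 for Pcna. The clamp, loader and lagging strand genes gave 6 of the 18, including Rfc2 at -1.49 and Lig1 at -2.53. Pcna was at 1655, 2511 and 1157 normalized counts with IL-17A, against 3911, 3918 and 3807 in the controls of the same table (log2 fold change -1.20 ± 0.27, limma adjusted p = 0.0448). Ccne1, which drives entry into S phase with Cdk2, was at 88.5, 137 and 94.5 against 253, 449 and 401 (log2 fold change -1.76 ± 0.31, limma adjusted p = 0.0356). For both genes the highest IL-17A library was well below the lowest control.

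Larger differences missed the threshold. Mcm5 was at 2315, 2621 and 2265 normalized counts in the controls and at 228, 1015 and 42.8 with IL-17A (log2 fold change -3.46 ± 1.00, limma adjusted p = 0.0616). Clspn was at 88.5, 428 and 17.6 with IL-17A against 607, 945 and 884 (-3.16 ± 1.01, limma adjusted p = 0.0736), and Exo1 at 17.9, 192 and 7.56 against 303, 462 and 440 (-3.65 ± 1.05, limma adjusted p = 0.0616). In each of them replicate 2 was several times above the other IL-17A libraries and still under every control.

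IL-1 and IL-17A share their controls and were set against each other directly at 72 h, an analysis chosen after the data had been seen. limma called none of the 51 members between IL-1 and IL-17A, with 1 lower with IL-1 at an unadjusted p under 0.05 (0.202% of all genes), and edgeR called none. With the same-numbered libraries paired, limma called none, with 8 lower with IL-1 at an unadjusted p under 0.05 (2.04% of all genes). The replicate 2 libraries differ in sex, with 26326 Xist and 30 Y-linked reads with IL-1 against 0 and 3717 with IL-17A. By sex the pairing therefore does not hold for replicate 2, which limits the paired fit. The members' median was -0.40 on the log2 scale, against 0.00 over all genes, and 48 of 51 were lower with IL-1, against 49.3% of all genes. Mcm10 was at 225, 142 and 147 normalized counts with IL-1 against 265, 362 and 230 with IL-17A. Mcm5 was at 135, 375 and 46.0 against 204, 916 and 38.6, so that its groups overlapped. Pcna differed by -0.07 ± 0.29.

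At 12 h neither cytokine moved a member past the threshold. With IL-1 limma, edgeR and DESeq2 called none of the 51, with 1 lower at an unadjusted limma p under 0.05 (1.37% of all genes), where limma called 0.0542% of all genes higher and 0% lower. The members' median was -0.09 against 0.00 over all genes, and the range ran from -0.67 for Gins2 to 0.27 for Ccne2. With IL-17A limma, edgeR and DESeq2 again called none, with 4 lower at an unadjusted limma p under 0.05 (1.71% of all genes), where limma called 0.0385% of all genes higher and 0% lower. There 47 of the 51 log2 fold changes were below 0 (50.8% of all genes) with a median of -0.16, against -0.00 over all genes. Mcm5 was at 1856, 2447 and 2366 normalized counts in the controls, at 1680, 2163 and 2172 with IL-1 and, in the IL-17A table, at 1549, 2073 and 1928 against 1948, 2564 and 2478. Its 12 h groups overlapped in both tables. Gins2, of the GINS complex, had the lowest value in both tables, at -0.67 and -0.70 (limma adjusted p = 0.886 and 0.926).

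The difference between the 72 h and the 12 h fold changes was also tested, though culture time and cytokine cannot be told apart in it. For IL-1, 48 of the 51 members were called lower at 72 h by limma, where 10.1% of 12955 genes were, with a median difference of -2.43 on the log2 scale, and edgeR called 49 (9.59% of all genes). For Mcm5 the difference was -3.87 ± 0.76 (limma adjusted p = 0.00771) and for Pcna -1.07 ± 0.17 (limma adjusted p = 0.00565). For IL-17A limma and edgeR called none, with 46 lower at an unadjusted limma p under 0.05 (15.1% of all genes), against 0.00768% of all genes called lower by limma. The median difference was -1.92, and without IL-17A replicate 2 of 72 h limma called 50, the share of all genes in that fit not being computed. The fits of both cytokines entered the control reads shared between the times as separate libraries. Their errors and p-values therefore do not account for the sharing. Because the 72 h controls hold reads of 12 h controls, the treated libraries were also compared with each other. Culture time and length of exposure differ together in that comparison, so it cannot tell them apart either. IL-1 at 72 h against IL-1 at 12 h gave 45 members lower, where 10.6% of all genes were, with a median of -2.20. IL-17A at 72 h against 12 h gave none by limma or edgeR, with 46 lower at an unadjusted limma p under 0.05 (15.7% of all genes) and a median of -1.65.

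Other genes of the cycle moved beside the members at 72 h. Of 33 further replication genes, IL-1 left 26 called lower and 1 higher (Pold4, a small subunit of polymerase delta), with a median of -1.83, and IL-17A left 10 lower with a median of -1.43. All 16 genes of a mitosis list were called lower with IL-1 (median -2.53) and 1 with IL-17A (median -1.99). Of 23 tested genes of G1/S control, IL-1 gave 9 lower, among them E2f1 and Ccna2, and 3 higher. Those 3 were Rb1, Cdkn1a and Cdkn1b, which restrain entry into S phase. Summed colon crypt base and stem cell markers went from 347 to 506 RPM in the controls to 20.7 to 70.5 with IL-1, where 5 of 6 were called lower, and to 17.1 to 136 with IL-17A. Summed epithelial markers were at 9398 to 11041 in the controls, 13570 to 15019 with IL-1 and 11439 to 14838 with IL-17A. The part of these shifts in the members' values was not tested.

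The E2F letters can be set beside these responses as a description. After 72 h of IL-1 the 14 members with the letters in their window had a median log2 fold change of -2.87 and the 27 without them -2.11. For IL-17A the medians were -2.45 and -1.83. The ranges overlapped widely, since Pold3 with the letters had -0.62 and Chaf1b without them -3.60.

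In Gli1+ stroma with Smad4 deleted, limma called few members, a share not above that of all genes in either segment. Distally limma called 4 of the 51 higher and none lower, where 7.88% of the 15262 genes tested were called higher, so that the share of members called was near that of all genes. The members' median was 0.43 against 0.00 over all genes, with 39 of 51 above 0 (50.5% of all genes), and DESeq2 called 9 higher (9.09% of all genes). Mcm10 was at 15.6 and 16.5 normalized counts in GWTT and at 108 and 58.7 in GS4T cells, 4.73-fold higher (log2 fold change 2.24 ± 0.48, limma adjusted p = 0.0244). Uhrf1 was at 76.3 and 75.5 against 430 and 161 (1.78 ± 0.47, limma adjusted p = 0.0440), and Rrm2 at 77.3 and 107 against 399 and 188 (1.58 ± 0.41, limma adjusted p = 0.0412). Chaf1b, the remaining one, was at 29.3 and 45.5 against 122 and 92.8. In all 4 genes both knockout libraries were above both controls, and replicate 1 was the higher of them. Without GS4T replicate 2 limma called 9 members, and without any of the other 3 libraries it called 0.

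Proximally 1 of the 51 members was called in GS4T cells, where 5.25% of the 15319 genes tested were called higher. That member was again Uhrf1, at 74.4 and 67.6 normalized counts in GWTT and 199 and 221 in GS4T cells, 2.93-fold higher (log2 fold change 1.55 ± 0.24, limma adjusted p = 0.0189). The members' median was 0.16 against 0.02 over all genes, and DESeq2 called 4 higher (7.15% of all genes). Mcm5 passed the threshold on p and missed that on size (0.99, limma adjusted p = 0.0332). Other members were lower: Pcna was at 1499 and 1490 against 1048 and 1156 (-0.44 ± 0.10, limma adjusted p = 0.0484), and Rpa2, of the complex that coats single-stranded DNA, at 333 and 308 against 175 and 164 (-0.91 ± 0.17, limma adjusted p = 0.0305). Both passed the threshold on p and not that on size. The count in proximal GS4T cells rests on single libraries: limma called 0 without GS4T replicate 1, 0 without replicate 2 (the one with little Gli1 RNA), 4 without GWTT replicate 1 and 2 without GWTT replicate 2.

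After deletion of Alk3 no member of the stromal cells was called by limma or edgeR in either segment. Proximally limma called 0.345% of all genes higher. At an unadjusted limma p under 0.05, 6 of the 50 tested were higher and 4 lower, against 12.3% and 9.28% of all genes, and DESeq2 called 2 higher (4.41% of all genes). The median was 0.02 against 0.01 over all genes. Distally limma called 0% of all genes. At an unadjusted limma p under 0.05, 14 were higher and none lower, against 10.5% and 8.21% of all genes, and DESeq2 called 7 higher (3.97% of all genes). The distal median was 0.40 against 0.01 over all genes, with 40 of 51 above 0 (50.9% of all genes). Mcm10 was at 17.8 and 18.7 normalized counts in GWTT and at 57.1 and 149 in distal GA3T cells (log2 fold change 2.27 ± 0.57, limma adjusted p = 0.156), and Uhrf1 at 87.0 and 85.9 against 256 and 425 (1.92 ± 0.30, limma adjusted p = 0.101). Pcna was at 1577 and 1566 against 1030 and 1032 in proximal GA3T cells (-0.61 ± 0.10, limma adjusted p = 0.0807). In each of these 3 genes the groups did not overlap. Without distal GA3T replicate 1 limma called 3 members, and proximally it called 0 without the GA3T library low in Gli1.

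**Figure D4:**
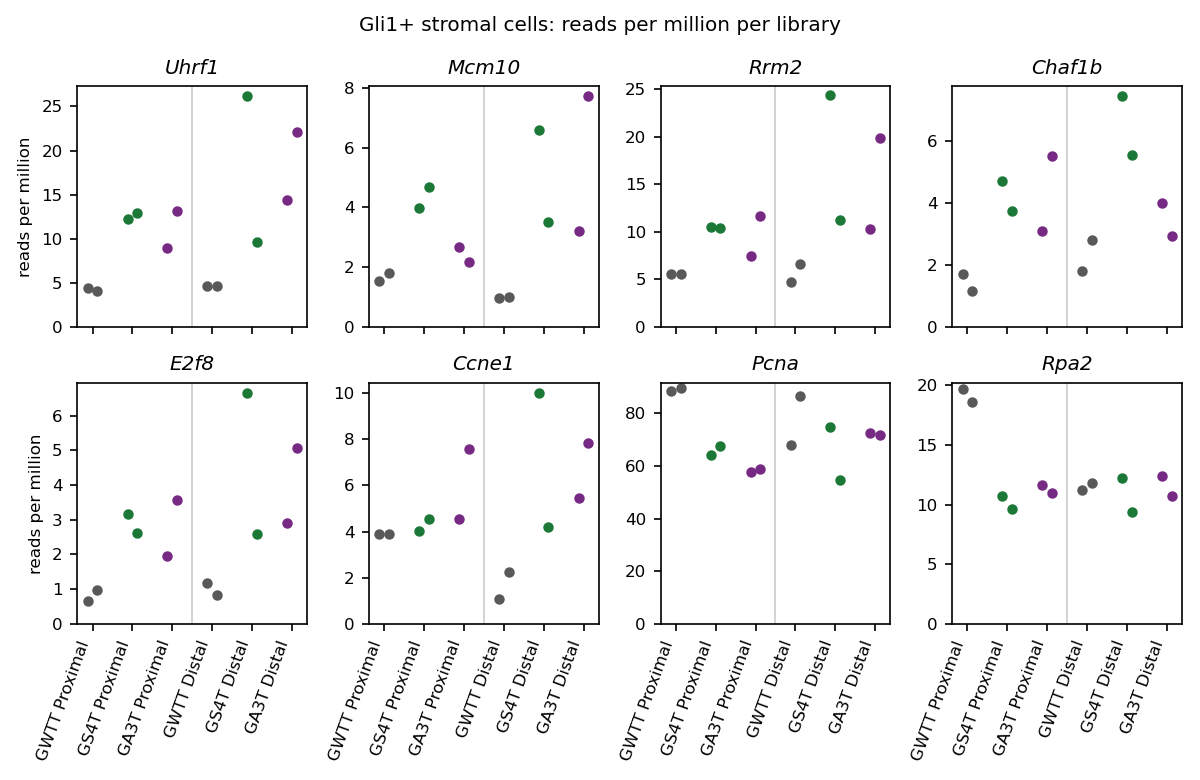
Levels of 8 members in every stromal library (RPM): GWTT, GS4T and GA3T cells of proximal and distal colon, 2 libraries each. Uhrf1 lies higher in all knockout libraries than in the controls of its segment, while proximal Pcna lies lower.

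By role, helicase activation and the G1/S regulators had distal medians of 1.35 and 2.01 in GS4T cells and of 1.05 and 1.89 in GA3T cells, with controls shared by both genotypes. The G1/S regulators are only 3 genes, of which Ccne2 had 0.14 and 0.37. In GS4T and GA3T cells, repair and fork protection had distal medians of 1.13 and 1.06, and chromatin assembly 1.09 and 0.59. Nucleotide supply had 0.78 and 0.56, and licensing 0.32 and 0.38. The clamp, loader and lagging strand genes had 0.05 and 0.14, and the polymerases -0.13 and 0.12. Ccne1 was at 17.6 and 36.8 normalized counts in distal GWTT against 164 and 70.5 in GS4T cells (2.03 ± 0.58, limma adjusted p = 0.0534), and it was at 66.2 and 64.6 against 65.5 and 77.7 proximally. The distal groups of Ccne1 were apart and the proximal ones overlapped.

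Other transcripts also differed in the stroma, the mitosis genes more than the members. Summed over the members, proximal RPM was 702 to 735 in GWTT, 716 to 747 in GS4T and 644 to 706 in GA3T cells. Distally it was 645 to 721, 683 to 967 and 796 to 867. Of the 16 mitosis genes, limma called 14 higher in proximal and 10 in distal GS4T cells, with medians of 2.32 and 1.93. In GA3T cells it called none, with 16 and 15 higher at an unadjusted p under 0.05 and medians of 2.02 and 1.83. Summed over the list, mitosis genes were at 56.6 to 134 RPM in the 4 control libraries and at 188 to 445 in the 8 knockout libraries. Of the 33 further replication genes, limma called 0 in proximal and 1 in distal GS4T cells (Dbf4, the activator of the origin firing kinase Cdc7). Summed epithelial markers were at 23.9 and 571 RPM in proximal controls, 1382 and 1729 in GS4T and 572 and 857 in GA3T cells, and at 70.5 to 195 distally against 764 to 1498 in GS4T and 466 to 1144 in GA3T cells. All 8 of them were called higher in distal and 1 in proximal GS4T cells. Summed leukocyte markers went the other way distally, from 3969 to 5151 in the controls to between 1421 and 2508 in the knockouts. The part of these markers in the members' values was not tested.

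In Muc2+ goblet cells no member was called by limma in any of the 4 comparisons, and the direction under Smad4 deletion differed by segment. In proximal GS4M2 cells 44 of the 51 log2 fold changes were below 0, against 50.3% of all genes, with a median of -0.17 against -0.00. In distal GS4M2 cells 50 were above 0, again against 50.3% of all genes, with a median of 0.23 against 0.00. Proximally 9 were lower and 1 higher at an unadjusted limma p under 0.05, against 8.82% and 7.85% of all genes. There limma called 0.151% of all genes lower and 0.174% higher, and edgeR and DESeq2 called none. The proximal groups did not overlap for 29 members that were lower, where 25.2% of all genes were lower in this way. Distally 10 were higher at an unadjusted limma p under 0.05 (5.11% of all genes). There limma called 0% of all genes, edgeR called none of the members and DESeq2 called 1 higher (0.451% of all genes), which was Gins2. Without distal GWTM2 replicate 1 limma called 1. The distal groups did not overlap for 27 members that were higher, against 23.1% of all genes. For the proximal GS4M2 table the headings in the study's own supplement name the columns the other way round. The deposited names were used, under which its GWTM2 columns hold the same reads as those of the proximal GA3M2 table, and with the other headings each proximal sign would be opposite.

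Rrm2 illustrates the proximal pattern, at 536 and 514 normalized counts in GWTM2 and 385 and 337 in GS4M2 cells (log2 fold change -0.54 ± 0.14, limma adjusted p = 0.153). Distally it was at 990 and 546 against 1112 and 782 (0.34 ± 0.33, limma adjusted p = 0.708), with overlapping groups. Uhrf1 was at 1163 and 1173 against 1114 and 1142 proximally and at 1592 and 1164 against 2128 and 1926 distally (0.57 ± 0.18, limma adjusted p = 0.434). The test of the difference between segments called none of the 51 members by limma or edgeR, with 21 lower in proximal than in distal cells at an unadjusted limma p under 0.05 (4.38% of all genes), where limma called 0% of all genes. The median difference was -0.45 on the log2 scale against 0.00 over all genes, and it was below 0 in 47 of 51 members (49.7% of all genes). It rests on the deposited proximal column names.

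Gins2 stood apart among the goblet cell values. It was at 216 and 164 normalized counts in proximal GWTM2 against 331 and 326 in GS4M2 cells (log2 fold change 0.80 ± 0.19, limma adjusted p = 0.137), and at 271 and 200 against 502 and 529 distally (1.14 ± 0.21, limma adjusted p = 0.370). In GA3M2 cells its differences were 0.59 and 0.46. On GRCm38 the exons of Gins2 (chromosome 8, 120578633 to 120589304, minus strand) overlap those of Gse1 on the opposite strand over 67.3% of their length, and strand use in counting is not given in the sources used here. Reads of the 2 genes may therefore be mixed. Gse1 had 1.06 and 0.87 in proximal and distal GS4M2 cells and -0.58 and 0.03 in GA3M2 cells. Chaf1a overlaps Ubxn6 in the same way over 52.5% of its exons, and Pcna and Tyms have pseudogene copies.

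Alk3 deletion gave no called member in goblet cells by limma, edgeR or DESeq2. Proximally 3 members were lower at an unadjusted limma p under 0.05 (7.91% of all genes), where limma called 0.0525% of all genes lower, with a median of -0.13 against -0.00 over all genes. Clspn was at 392 and 383 normalized counts in GWTM2 and 290 and 163 in GA3M2 cells (-0.83 ± 0.31, limma adjusted p = 0.298). Its groups did not overlap, but the knockout libraries were far apart, and without GA3M2 replicate 1 limma called 3 members. Distally 1 member was lower at an unadjusted limma p under 0.05 (5.46% of all genes), where limma called 0% of all genes, with a median of -0.03 against 0.00. The 16 mitosis genes were all below 0 in distal GA3M2 cells with a median of -0.48, and limma called none of them, with 9 at an unadjusted p under 0.05. Summed goblet cell markers were at 30916 to 34305 RPM in proximal GWTM2 cells against 10023 to 13565 in GA3M2 cells, with 1 of 8 called lower, and leukocyte markers were at 8.0 to 10.3 against 31.2 to 39.3. Distally goblet cell markers were at 35915 to 63144 against 15258 to 24444, with none of 8 called by limma and 1 higher and 4 lower at an unadjusted p under 0.05 (DESeq2 called 3 lower), and leukocyte markers at 5.57 to 14.1 against 32.8 to 41.0. Their part in the members' values was not tested.

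Followed through all 12 comparisons, 10 members that stand for the roles (Mcm2, Mcm5, Pcna, Pola1, Rrm2, Tyms, Uhrf1, Ccne1, Ccne2 and E2f8) can be set side by side. In goblet cells their log2 fold changes lay between -0.54 (Rrm2) and -0.05 (Uhrf1) in proximal GS4M2, 0.05 (E2f8) and 0.61 (Ccne1) in distal GS4M2, -0.63 (E2f8) and 0.28 (Ccne2) in proximal GA3M2 and -0.45 (E2f8) and 0.46 (Ccne1) in distal GA3M2 cells. In the stroma they ran from -0.44 (Pcna) to 1.74 (E2f8) in proximal GS4T, from -0.26 (Pola1) to 2.03 (Ccne1) in distal GS4T, from -0.61 (Pcna) to 1.64 (E2f8) in proximal GA3T and from -0.10 (Pcna) to 2.02 (Ccne1) in distal GA3T cells. In organoids at 12 h they stayed between -0.22 (E2f8) and 0.27 (Ccne2) with IL-1 and between -0.37 (Uhrf1) and -0.00 (Ccne1) with IL-17A. At 72 h all 10 lay between -4.02 (Mcm5) and -1.27 (Pcna) with IL-1 and between -3.46 (Mcm5) and -1.20 (Pcna) with IL-17A. Mcm5 and Pcna thus bounded both 72 h ranges.

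Among companions outside the members, Mki67, a marker of cycling cells, had a log2 fold change of 1.39 in proximal GS4T cells (limma adjusted p = 0.0172) and -2.98 after 72 h of IL-1 (limma adjusted p = 0.00575). Cdk1, the mitotic kinase, had 3.07 in proximal and 2.57 in distal GS4T cells (limma adjusted p = 0.00984 and 0.00558) and -2.16 after 72 h of IL-1 (limma adjusted p = 0.00995). E2f1 rose by 1.20 in distal GS4T cells (limma adjusted p = 0.0336). None of the 3 was called in goblet cells or at 12 h.

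**Figure D5:**
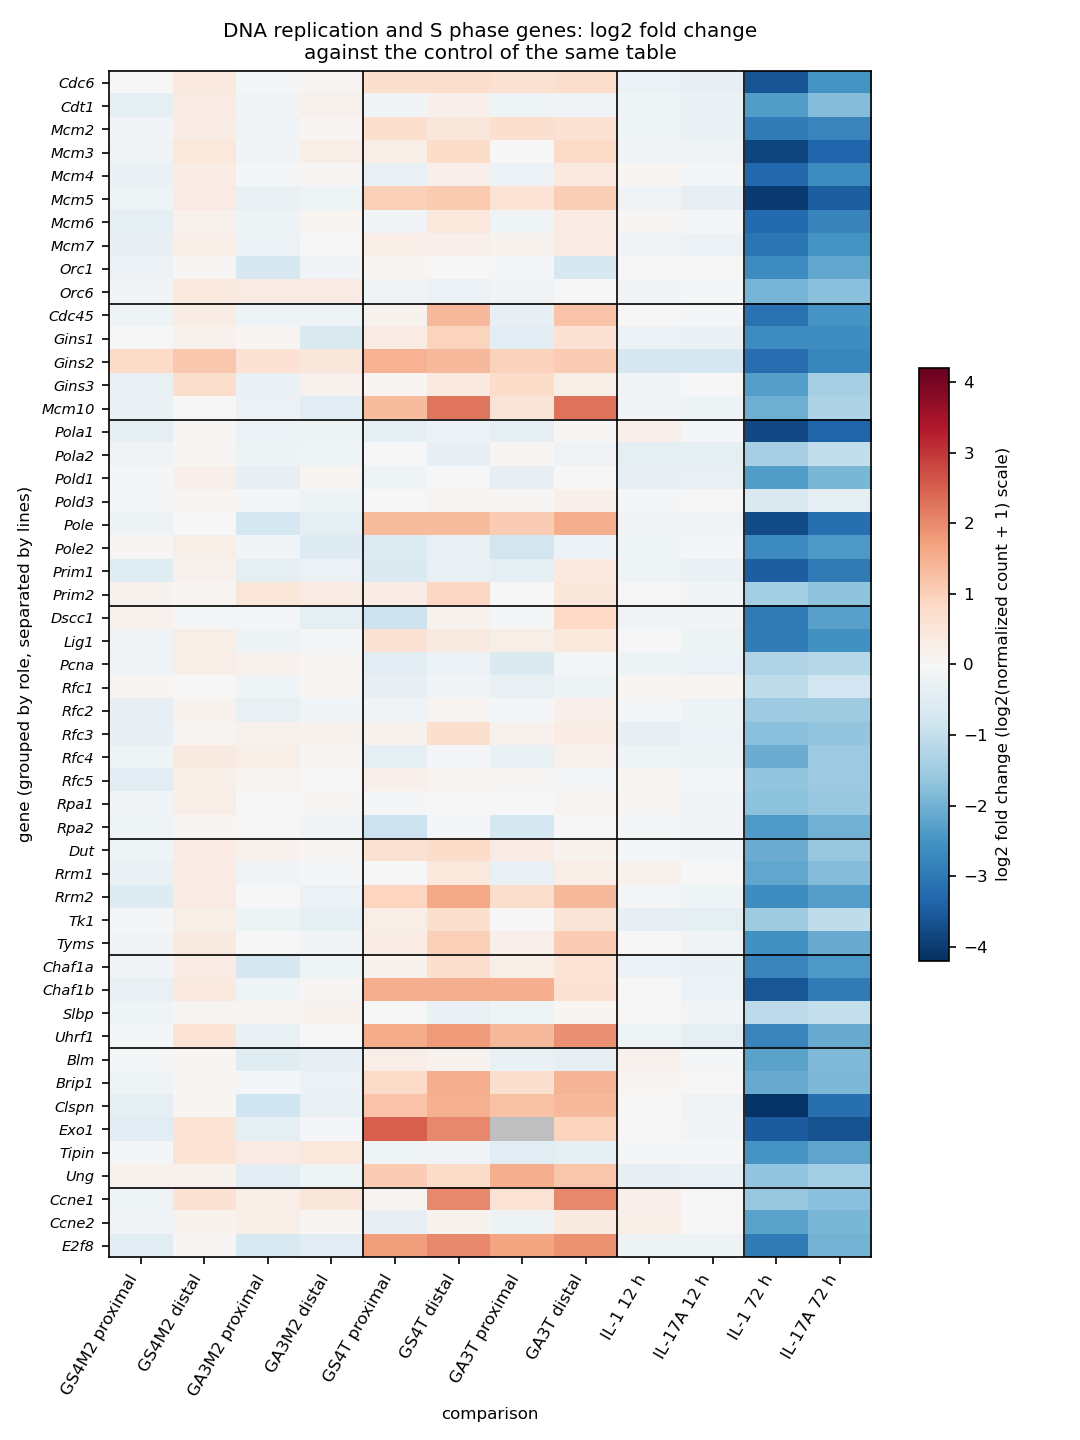
Log2 fold changes of the 51 members (rows, by role) in the 12 comparisons (columns), each knockout or cytokine against its control. The 72 h cytokine columns are negative for all members, the 12 h and goblet cell columns lie near 0, and the stromal columns hold both signs.

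The response of stromal and goblet cells to Smad4 loss was compared by a test of the difference between their fold changes. Proximally limma called 7 of the 51 members, all higher in the stroma, where 3.53% of 12902 genes were called higher, and edgeR called 7 (3.81% of all genes). This too rests on the deposited names of the proximal GS4M2 columns. They were Uhrf1 (difference 1.60 ± 0.17, limma adjusted p = 0.00994), Rrm2 (1.43 ± 0.20, limma adjusted p = 0.0168), Mcm5, Mcm10, Chaf1b, E2f8 and Exo1, the last resting on 2.07 and 5.12 normalized counts in the stromal controls. Distally limma and edgeR each called 1, Mcm10 (2.22 ± 0.50, limma adjusted p = 0.0439), where they called 4.16% and 4.62% of all genes higher. Leaving out 1 library at a time gave 0 to 10 called members proximally and 0 to 4 distally. For Alk3 both tools called none in either segment. At an unadjusted limma p under 0.05, 10 members were then higher in the stroma and 3 lower proximally, against 9.31% and 7.58% of all genes, and 11 were higher and 1 lower distally, against 9.3% and 6.54%. limma called 0.55% of all genes higher proximally and 0.478% distally. Between the segments of the stroma limma and edgeR called no member for Smad4 or Alk3, with 2 and 8 members lower proximally than distally at an unadjusted limma p under 0.05 (4.01% and 1.92% of all genes), where limma called 0.0457% and 0% of all genes lower.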

How the data were processed

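RNA was sequenced from 42 libraries (SMARTER mRNA-Seq kit). The authors aligned reads uniquely to mm10 with STAR 2.5.3 and deposited counts normalized with DESeq2 1.28.1 (a signal scaled by size factors) in 12 tables. The counting tool, annotation and strand are not given in the sources used here. The normalized counts were whole multiples of the value of 1 read (100% of values within 0.1 read), which gave back the reads and the depths. RPM and RPKM (GENCODE M21 exon lengths) used these reads. Unnamed rows, up to 28.2% of a library, were left out. limma 3.58.1 was run per table (R 4.3.3) on log2(normalized count + 1) for genes with a mean of at least 10, without a block, so fold changes of low genes are understated. Differences between comparisons were fitted over both tables. edgeR 4.0.16 and DESeq2 1.42.0 on the recovered reads, other pseudocounts (0.1, 10), filters (none, 50), upper-quartile scaling, replicate and sex blocks and left-out libraries were alternatives. In IL-1 and IL-17A libraries of 72 h, deviations from the group means correlated in all 3 same-numbered pairs (0.58, 0.44 and 0.75), a pairing read from the data and not from the labels. By Xist and Y-linked reads the replicate 2 libraries of that pairing differ in sex. The scripts were tested on simulated data. Members and gene lists were chosen with earlier results of these data known. Named were the called members, the 3 largest rises and falls per comparison, 10 genes followed throughout, the targeted genes and Mki67, Cdk1 and E2f1; other genes were named after their values were seen.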

Additional observations from a re-analysis of the deposited data

Results flagged for a closer look

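In 3 tests of a difference between responses, members passed the threshold. For the response to IL-1 at 72 h against 12 h, limma called 48 of the 51 members, all lower at 72 h, where 10.1% of all genes were called lower, with the control libraries largely shared between the times. The fit entered the shared control reads as separate libraries, so its p-values do not account for the sharing. Culture time and cytokine cannot be told apart in it. For the response to Smad4 deletion in stromal against goblet cells, limma called 7 members in proximal and 1 in distal colon (Mcm10), all higher in the stroma, where 3.53% and 4.16% of all genes were called higher. The 1 distal call among 51 members is a smaller share than that of all genes, and the proximal count rests on the deposited names of the proximal GS4M2 columns. The values of these genes and their errors are in the report. Counts of this kind from 2 libraries per group moved with single libraries, as given there.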

How the results depend on the processing

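For the comparisons and the tests of differences, 245 counts of called members stayed within 1.5 times the reported count under another setting and 54 did not. The 245 include counts of 0 that stayed at 0, as in both 12 h comparisons, so they say little about the counts above 0. Of the 169 values of the members' median, 162 stayed within the spread between libraries and 7 did not. That spread was the within-group SD of the members' mean log2 level per library. It is wide where libraries of a group differ, as with IL-17A at 72 h. With DESeq2 the members called numbered 1 in distal GS4M2, 4 in proximal and 9 in distal GS4T, 2 in proximal and 7 in distal GA3T cells and 42 with IL-17A at 72 h, where edgeR gave 10. A pseudocount of 10 gave 2 in proximal GS4T cells and 0 for the distal Smad4 difference between cell types, and a minimum mean of 50 gave 2 in distal GS4T cells. With the sex of the library (from Xist and Y-linked genes) as a block, 1 was called in distal GS4M2, 4 in proximal GS4T, 1 in distal GA3T cells and 0 with IL-17A at 72 h. With the near-identical libraries averaged, or with the unshared control alone, IL-17A at 72 h gave 0, and IL-1 at 72 h with the unshared control alone gave 0. These 3 settings were chosen after seeing the data. With the replicate number as a block, 0 were called with IL-17A at 72 h, 48 with IL-1 at 72 h, 12 for the IL-17A time difference and 2 for the distal Smad4 difference between cell types. A knockout or cytokine group shares at most 2 replicate numbers with its control, and nothing in the labels ties them to an animal or day. Leaving out 1 library at a time gave 0 to 1 members in distal GS4M2, 0 to 3 in proximal GA3M2, 0 to 4 in proximal GS4T, 0 to 9 in distal GS4T, 0 to 3 in distal GA3T, 49 to 50 with IL-1 and 0 to 49 with IL-17A at 72 h, and 0 in proximal GS4M2, distal GA3M2, proximal GA3T and both 12 h comparisons. For the tests of differences it gave 44 to 49 (IL-1 time), 0 to 50 (IL-17A time), 0 to 10 (proximal) and 0 to 4 (distal) for Smad4 between cell types, 0 to 2 for Alk3 in each segment and 0 between segments. Single named genes were followed only where a member was called, in GS4T cells of both segments and at 72 h of IL-1 and IL-17A. Among them the sign of a value reversed in some of these fits for Ccne2 in proximal (-0.96 to 0.27) and distal GS4T cells (-0.52 to 0.80) and for Pola1 in distal GS4T cells (-0.70 to 0.18). Named values in the other comparisons were not checked in this way. The members' median also changed sign without 1 library in distal GA3M2 (-0.17 to 0.11), proximal GA3T (-0.02 to 0.10), 12 h IL-1 (-0.23 to 0.13) and 12 h IL-17A (-0.31 to 0.04), as it did in distal GA3M2 with the sex block (0.11) and in proximal GA3T with upper-quartile scaling (-0.00). The causes were not tested. With the libraries left out, a lone library is assumed to vary like those of the other group. The share of all genes called was not computed in any fit with a library left out. No 2 libraries of a group agreed within sampling noise, so the averaging planned for such pairs was not run, and the sex block could not be estimated in distal GS4T cells. Depth limits the rare members of the stroma, such as Exo1.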
